A study of Mus musculus with 2 samples.

Results

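The genes described here encode the proteasome, its activators and its assembly factors. They were taken from the array files by name, as every gene called Psm followed by a letter from a to g and a number, with the inducible immunoproteasome subunits Psmb8, Psmb9 and Psmb10 left out. This gave 46 gene names with 90 probes, of 37325 names and 56605 probes outside the controls. Psmc3ip matched by name only, since it encodes a meiotic recombination protein, and without it 45 genes with 88 probes remained. Of these 45 genes, 44 had at least 1 probe well above background on both arrays. Psmb11, the beta subunit of the thymus proteasome, stayed at background in both, with a signal of 5.38 in heated blood and 6.84 in control blood.

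RNA from mouse blood was hybridised to 1-colour Agilent arrays, with 1 heated sample and 1 control, to ask which genes heat affects. Per the labels, heating lasted 1 h at 38.5 °C and followed 1 h of pretreatment at 37 °C in a water bath; they name no temperature or time for the control, no strain, age or sex, and not whether animals or drawn blood were heated. Both samples share the rest of the preparation, in which red and white cells were lysed differentially and globin transcripts were removed. The labels' protocols speak of 3 replicates a line, but a single array stands for each group here. No difference is therefore checked by replicates or given a p-value, and the heating cannot be told apart from the pretreatment or the handling.

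The proteasome degrades proteins that carry ubiquitin chains. Its barrel, the 20S core, is built of rings of alpha subunits around rings of beta subunits, some of which cut peptide bonds. The 19S particle caps the barrel. Its base holds ATPases that unfold the substrate and scaffold subunits that bind ubiquitin, and its lid removes the ubiquitin chain. Activators can replace the 19S particle at the end of the barrel, and a set of chaperones assembles the subunits. When the proteasome is impaired, mammalian cells raise the transcription of its subunits together through Nfe2l1, a transcription factor that binds antioxidant response elements, and blood cells express the constitutive subunits widely.

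Of the 56605 probes, 30471 (53.8%) were well above background in heated blood and 29460 (52.0%) in control blood, no spot was saturated, and both arrays lay on 1 slide and came from 1 scan. Signals below are the deposited processed signals, and each difference is heat minus control on the log2 scale after each array was divided by its 75th percentile, 604 in heated blood and 620 in control blood. Equal signals on both arrays thus give a difference of 0.04. Differences between spots of the same probe had an SD of 0.0822 (285 probes), and differences between probes of the same gene had an SD of 0.193 (6512 genes). For 1 probe with 1 spot, a difference below 0.164, 2 times the spot SD, therefore lay within what repeated spots of 1 hybridisation gave. Spot noise is smaller in a mean over several probes, and probes of the same gene differed by more than spots. The 2 spot SDs used below are thus a fixed mark of size and no limit of noise. All 6 monocyte markers were detected in both samples, 5 of them with a difference above 0, and their median was 0.10. Before scaling, the summed signal of their brightest probes was 563519 in heated blood and 569636 in control blood. These sums are not on the scale of the differences. The detected neutrophil markers (3 of 5, all above 0), T cell markers (3 of 5, 2 above 0) and markers of dividing cells (3 of 3, 2 above 0) had medians of 0.02, 0.14 and 0.07. Of 4 B cell, 4 platelet, 4 red cell and 3 NK cell markers, 1 each was detected, with differences of 0.33 for Cd79b, 0.26 for Pf4, 0.03 for Hba-a1 and -0.01 for Klrb1c. In a bulk sample, fewer cells of a type and less RNA per cell cannot be told apart. The part of cell makeup in the differences below was not tested.

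The probes are DNA of 60 bases, and those the results turn on are given first, 5′ to 3′ in the sense of the transcript, from the array files with their mm9 coordinates. The Psmc5 probe and a Psmg1 probe belong to genes among the most negative differences of their class, and both end at a stop codon, shown in capitals. The 3 Psma4 probes lie in 1 transcript and gave unlike differences. The Psmb5 probe stands for a catalytic subunit, and the Psme2b probe is shown because it also matches Psme2.
Psmc5, chr11:106124192-106124376, + strand: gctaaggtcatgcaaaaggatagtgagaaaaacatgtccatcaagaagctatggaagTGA
Psmg1, chr16:96201644-96201703, - strand: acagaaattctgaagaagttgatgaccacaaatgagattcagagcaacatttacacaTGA
Psma4, chr9:54802534-54802733, + strand: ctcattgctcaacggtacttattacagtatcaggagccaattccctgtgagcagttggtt
Psma4, chr9:54802741-54804087, + strand: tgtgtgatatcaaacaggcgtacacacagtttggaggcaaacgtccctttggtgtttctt
Psma4, chr9:54804681-54804740, + strand: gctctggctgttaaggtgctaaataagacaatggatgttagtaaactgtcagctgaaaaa
Psmb5, chr14:55233161-55233220, - strand: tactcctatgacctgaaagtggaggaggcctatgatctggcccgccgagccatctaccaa
Psme2b, chr11:48759495-48759554, - strand: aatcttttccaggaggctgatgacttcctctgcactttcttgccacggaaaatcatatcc

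As a group, the proteasome genes differed little between the arrays. Their 44 differences ran from -0.35 to 0.14 with a median of -0.050 and an SD over genes of 0.100, against a median of 0.007 and an SD of 0.242 over all 18685 genes measured. The difference was below 0 for 32 of 44 genes (72.7%), where 47.8% of all genes lay below 0, and above 0 for 12, where 52.2% of all genes lay above 0. None reached a difference of 1, which is 2-fold, in either direction (background 0.209% higher and 0.45% lower). Lower by at least 0.25 were 2 genes (4.55%), Psma8 and Psmc5, where 8.73% of all genes lay, and none was higher by at least 0.25, where 9.21% of all genes lay. The median was thus shifted by less than 1 spot SD. Large differences were fewer than among all genes, a comparison that does not allow for signal level. Within 2 spot SDs lay 40 of 44 genes (90.9%), as 67.5% of all genes did. Within 1 spot SD lay 59.1% of the proteasome genes and 41.4% of all genes.

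Proteasome genes are bright on the arrays, and bright genes vary less. Among the 3187 genes whose mean level lay in the interquartile range of the proteasome genes, the median difference was -0.007, 52.7% lay below 0, 3.17% were lower by at least 0.25, 2.76% were higher by at least 0.25 and the SD was 0.148. That range holds 22 of the 44 proteasome genes, of which 14 lay below 0 and 1, Psmc5, was lower by at least 0.25. Psma8 lies below it in level. The smaller number of large differences than among all genes therefore cannot be told apart from signal level. Shares within 1 or 2 spot SDs were not computed for genes of like level.

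**Figure D1:**
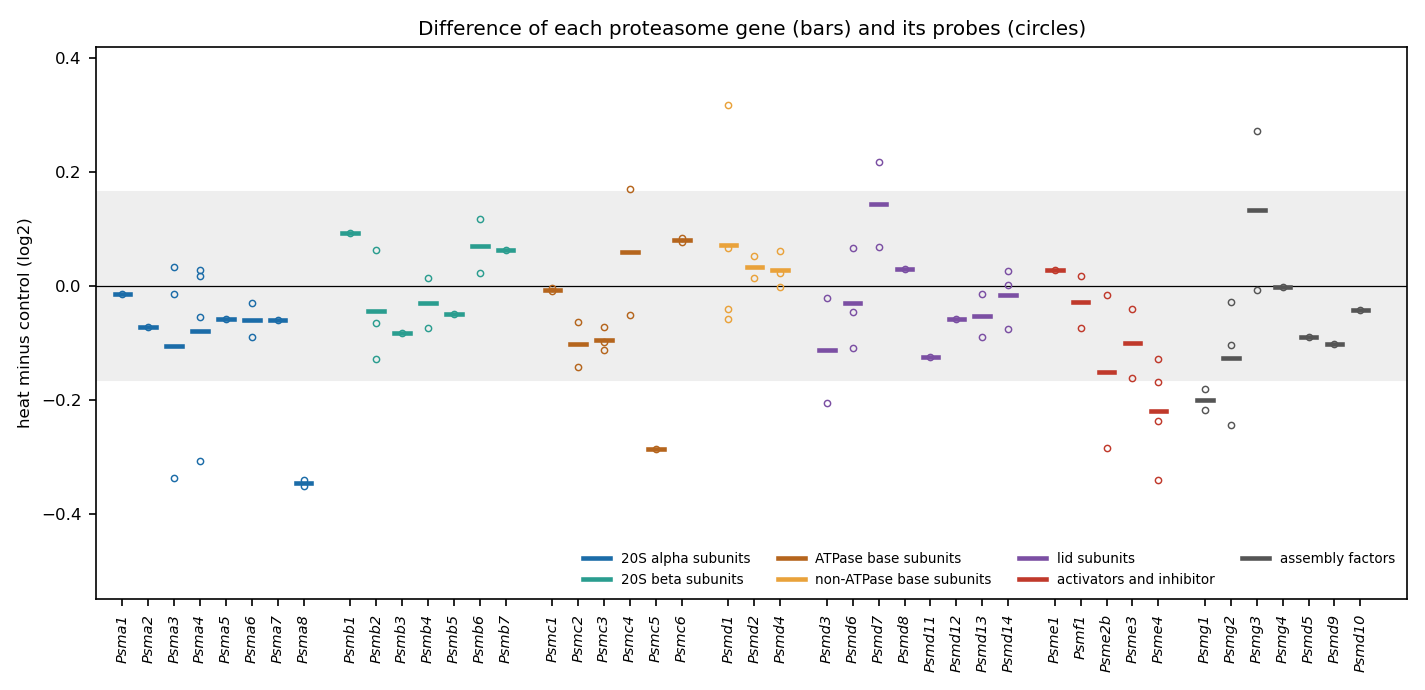
Difference of each of the 44 measured proteasome genes, heat minus control on the log2 scale (vertical axis), as a bar in the colour of its class, with each of its probes as a circle; the grey band spans 2 spot SDs (0.164) on either side of 0. Psma8, Psmc5, Psme4 and Psmg1 lie below the band, and no gene lies above it, although single probes of Psmd1, Psmd7, Psmg3 and Psmc4 do.

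**Figure D2:**
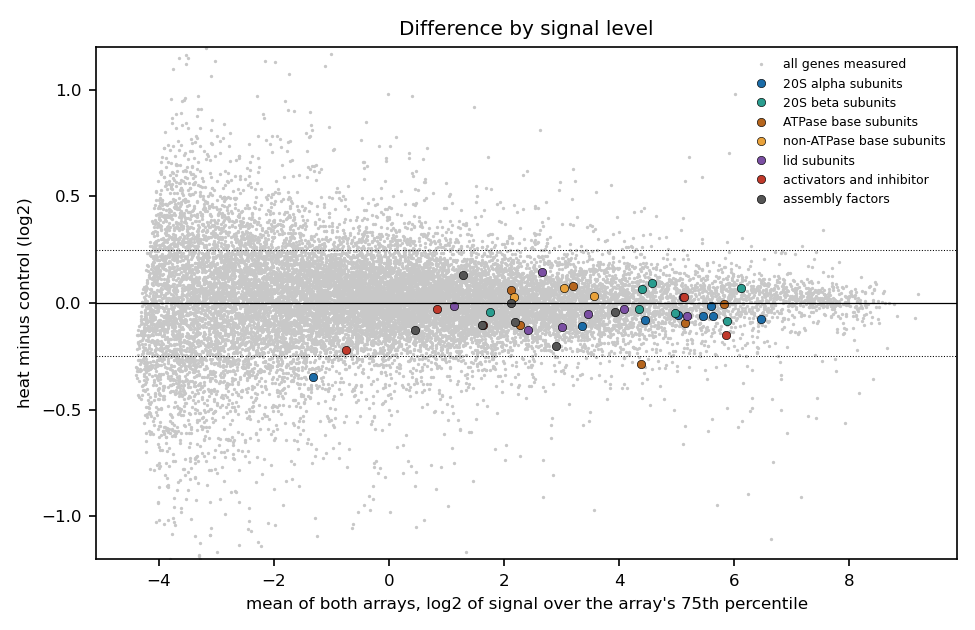
Difference (vertical axis, heat minus control, log2) against mean level of both arrays (horizontal axis, log2 of the signal over the 75th percentile) for all genes measured, in grey, and the proteasome genes, coloured by class; dotted lines mark 0.25 on either side of 0, and 76 genes lie outside the vertical limit of 1.2. The proteasome genes lie mostly at middle and high levels, where the grey cloud is narrow, with Psma8 the dimmest of them.

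The alpha subunits form the outer rings of the core and gate its entrance. All 8 lay below 0, except that Psma1 and Psma2 turned above it under normexp background correction with quantile scaling and Psma2 also with the 75th percentile. Their median was -0.066 and their range -0.35 to -0.01, and 6 of the 8 lay within 1 spot SD of 0. Psma8, the testis form of an alpha subunit, gave signals of 452 in heated blood and 588 in control blood at 1 probe. The other Psma8 probe gave 102 in heated blood and 134 in control blood, and the gene's difference of -0.35 was the lowest of all members. Both Psma8 probes lay below the 75th percentile of their array, and they differed by nearly the same amount, -0.34 and -0.35.

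For Psma3, an alpha subunit, the probes split by transcript. The probe designed on an Ensembl transcript of Psma3 gave 542 in heated blood and 703 in control blood, a difference of -0.34. The other Psma3 probes gave 34235 and 11281 in heated blood against 35518 and 11316 in control blood, differences of -0.01 and 0.03. The gene's mean of -0.11 thus rested on its dimmest probe.

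Psma4, a further alpha subunit, showed the same kind of split inside 1 RefSeq transcript. Its probe at chr9:54804681-54804740, printed above, gave 12119 in heated blood and 15404 in control blood, a difference of -0.31. The probes upstream of it gave 7202 and 8086 in heated blood against 7680 and 8209 in control blood, differences of -0.05 and 0.02. The probe farthest downstream gave 38254 in heated blood and 38546 in control blood, a difference of 0.03. So 1 of 4 Psma4 probes carried the gene's mean of -0.08, and neighbours on both sides of it differed by less than 1 spot SD.

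Psma2 gave 52349 in heated blood and 56543 in control blood at its only probe, a difference of -0.07. Psma1, Psma5, Psma6 and Psma7, the remaining alpha subunits, had differences of -0.01, -0.06, -0.06 and -0.06. No alpha subunit other than Psma8 went beyond 2 spot SDs.

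The beta subunits carry the active sites inside the barrel. Of the 7 measured, 3 lay above 0 and 4 below it, with a median of -0.029 and a range of -0.08 to 0.09. Psmb5, which has the chymotrypsin-like activity that drugs such as bortezomib block, gave 18688 in heated blood and 19851 in control blood, a difference of -0.05. Psmb6, which has the caspase-like activity, gave 27787 and 66685 in heated blood and 26307 and 67398 in control blood at its probes, and its mean difference was 0.07. Psmb7, which has the trypsin-like activity, gave 12974 in heated blood and 12746 in control blood, a difference of 0.06. The catalytic subunits therefore lay within 1 spot SD of 0, and the signs of Psmb6 and Psmb7 turned under both normexp corrections.

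Among the beta subunits with no active site, Psmb1 gave 14888 in heated blood and 14327 in control blood, a difference of 0.09 that turned to -0.01 with normexp and the 75th percentile. Psmb3 gave 34550 in heated blood and 37590 in control blood, a difference of -0.08. Psmb2 and Psmb4 had mean differences of -0.04 and -0.03 with probes on both sides of 0. RefSeq lists pseudogenes of Psmb5, Psmb6, Psmb7 and Psma5, and whether their transcripts reach these probes was not checked. The immunoproteasome subunits, which replace the catalytic ones under interferon, had differences of 0.07 for Psmb8, 0.01 for Psmb9 and -0.04 for Psmb10.

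The 6 ATPases of the base form the ring that unfolds substrates. They had a median of -0.050 and a range of -0.29 to 0.08, with 2 above 0 and 4 below. Psmc5 gave 11402 in heated blood and 14282 in control blood, a difference of -0.29 and the lowest of the 19S particle. This rests on 1 probe, whose 60 bases lie over 185 bases of the mm9 sequence of chr11 and end with the stop codon printed above. Psmc3, another ATPase, had 3 probes below 0, with 6337, 66838 and 20810 in heated blood against 7038, 72184 and 22895 in control blood, and a mean difference of -0.09. The 3 differences, from -0.07 to -0.11, were alike in direction and size.

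Psmc2 gave 20512 and 386 in heated blood against 22014 and 437 in control blood, and a mean difference of -0.10. Psmc6 gave 1459 and 22510 in heated blood against 1414 and 21906 in control blood, and a mean difference of 0.08 with both probes above 0. Psmc1, with 2 overlapping probes, had a difference of -0.01, and Psmc4, with probes at -0.05 and 0.17, one of 0.06. Subunits of the same ring thus lay on both sides of 0. Only Psmc5 went beyond 2 spot SDs, by its single probe, and probes of the same gene differed with an SD of 0.193 over all genes.

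The 3 other base subunits all lay above 0, with a median of 0.034, and all within 1 spot SD. Psmd1, a scaffold that also docks ubiquitin receptors, gave 7060, 23698 and 18012 in heated blood against 6921, 25345 and 19026 in control blood at its RefSeq probes, differences of 0.07, -0.06 and -0.04. Its probe on an Ensembl transcript gave 228 in heated blood and 188 in control blood, a difference of 0.32, which brought the gene's mean to 0.07. Psmd2, the other scaffold, gave 26364 and 1976 in heated blood against 26800 and 1957 in control blood, a mean difference of 0.03. Psmd4, a ubiquitin receptor, gave 5110, 130 and 31225 in heated blood against 5252, 128 and 31572 in control blood, a mean difference of 0.03. For Psmd1, as for Psma3, the dimmest probe set the sign or the size of the gene's value.

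The 8 lid subunits had a median of -0.040 and a range of -0.12 to 0.14, with 2 above 0 and 6 below, and all lay within 2 spot SDs. Psmd14, the metalloprotease that cleaves ubiquitin from the substrate, gave 36.2, 4221 and 15080 in heated blood against 39.2, 4255 and 15476 in control blood, a mean difference of -0.02. Psmd7, its inactive partner, gave 8044 and 2013 in heated blood against 7879 and 1777 in control blood. Its mean difference of 0.14 was the highest of all members, and both probes lay above 0. The brighter probe, on a RefSeq transcript, gave 0.07, and the dimmer one, on another transcript, gave 0.22. With the brightest probe per gene, Psmb1 at 0.09 lay above Psmd7 at 0.07.

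Psmd11, which bridges the lid and the core, gave 3096 in heated blood and 3466 in control blood, a difference of -0.12. Psmd3 gave 29425 and 746 in heated blood against 30649 and 883 in control blood, a mean difference of -0.11. A further Psmd3 probe passed background in heated blood alone, at 31.5 against 23.4 in control blood, where the lowest signal well above background was 31.0, so it has only a bound in control blood and was left out of the mean. Psmd12 gave 21406 in heated blood and 22901 in control blood, a difference of -0.06. Psmd6, Psmd8 and Psmd13 had differences of -0.03, 0.03 and -0.05. The lid thus held the member with the highest mean over probes, beside 6 members slightly below 0.

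The activators open the barrel without the 19S particle. Over the 4 activators and the inhibitor Psmf1, the median difference was -0.101, with 1 gene above 0 and 4 below. Psme4, the large activator of nuclei that acts on acetylated histones, was below 0 at all 4 probes. Its RefSeq probes gave 7534 and 666 in heated blood against 8457 and 866 in control blood, differences of -0.13 and -0.34. Its other probes gave 65.6 and 38.6 in heated blood against 79.4 and 44.6 in control blood, differences of -0.24 and -0.17, and the mean over the 4 was -0.22, or -0.11 with normexp and the 75th percentile. The brightest Psme4 probe gave the smallest of these differences, and it lay within 2 spot SDs.

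Psme1, a subunit of the interferon-induced activator, gave 21243 in heated blood and 21400 in control blood, a difference of 0.03. Its partner Psme2 had no probe under its own name. Psme2b, a copy of Psme2, had 2 probes whose transcript lists also name Psme2, so the 2 genes cannot be told apart here. They gave 59265 and 18667 in heated blood against 74161 and 19387 in control blood, differences of -0.28 and -0.02 and a mean of -0.15. The probe printed above is the one with the smaller difference. Both lie on 1 transcript, and the brighter of them alone was lower by more than 0.25.

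Psme3, the nuclear activator of the same family, gave 4254 and 773 in heated blood against 4493 and 888 in control blood, a mean difference of -0.10. Psmf1, which binds and inhibits the core in vitro, gave 836 and 1369 in heated blood against 848 and 1479 in control blood, a mean difference of -0.03. Its remaining probe stayed at background in both samples.

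The 7 assembly factors had a median of -0.090, with 1 above 0 and 6 below. Psmg1 and Psmg2 form a dimer that starts the alpha ring, and Psmg1 gave 2332 and 7641 in heated blood against 2716 and 9128 in control blood. Both Psmg1 probes lay below 0, at -0.18 and -0.22, and the mean of -0.20 was beyond 2 spot SDs, though it was -0.10 with normexp and quantile scaling. Psmg2 gave 326, 3698 and 408 in heated blood against 360, 4500 and 427 in control blood, a mean difference of -0.13 with all probes below 0. Both partners of this dimer were therefore lower on the heat array, Psmg1 beyond 2 spot SDs and Psmg2 within them. That mark is for single spots, and each of these values is a mean over several probes.

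Psmg3 and Psmg4 form the other dimer of the alpha ring. Psmg3 gave 3894 and 614 in heated blood against 4017 and 522 in control blood, a mean difference of 0.13 that came from the dimmer probe, on an Ensembl transcript, at 0.27. Psmg4 had a difference of -0.001. Psmd9, a chaperone of the base, gave 1784 in heated blood and 1967 in control blood, a difference of -0.10. Psmd5 and Psmd10, which also assemble the base, had differences of -0.09 and -0.04.

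**Figure D3:**
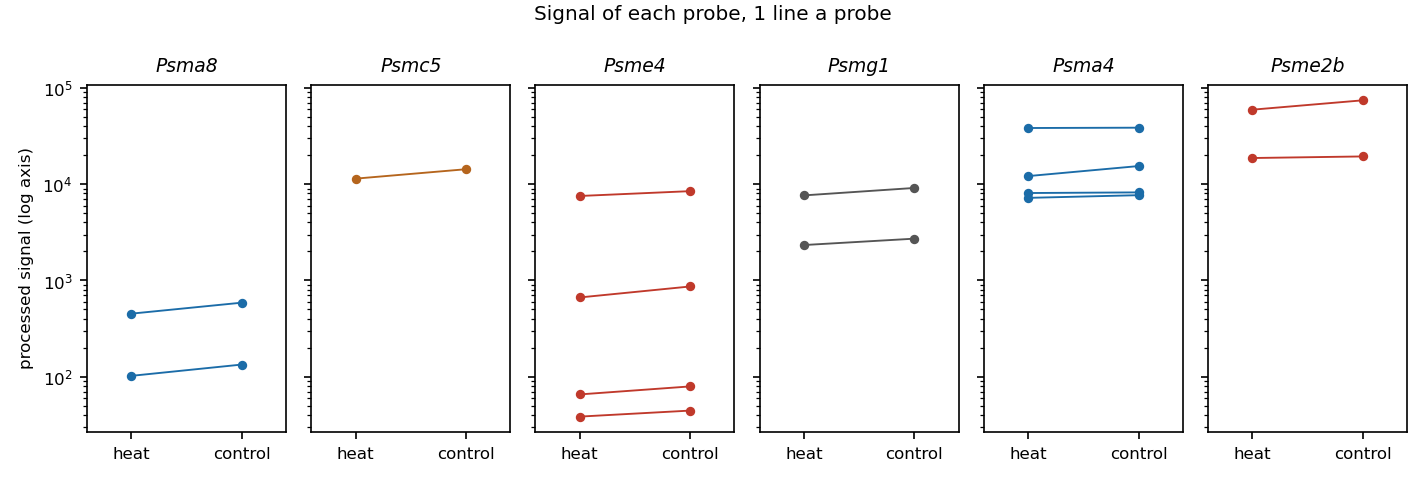
Processed signal (log axis, no unit) of every usable probe of Psma8, Psmc5, Psme4, Psmg1, Psma4 and Psme2b on the heat array (left) and the control array (right), with 1 line a probe and no error bars, since each probe had 1 spot. The signals are not scaled, and all probes shown were lower on the heat array. In Psma4 and Psme2b 1 line is steeper than the rest.

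Several of the larger values rest on single probes. Of the 27 measured members with several usable probes, 16 had all probes on 1 side of 0, 12 of them below it and 4 above it, and 11 had probes on both sides. The same share over all genes with several probes was not computed, so these counts do not set the members apart. The other 17 members had 1 usable probe, among them Psmc5. Each member probe had 1 spot. Probes on RefSeq transcripts and on other transcripts had like medians, -0.044 over 70 usable probes and -0.047 over 14. Probes on other transcripts were much dimmer, with a median signal of 475 in heated blood and 480 in control blood, against 11760 in heated blood and 12905 in control blood for the RefSeq probes, and they held the highest difference of any usable member probe, 0.32. Psmc3ip, the name match that is no proteasome gene, had a mean of -0.21 from probes at -0.41 and -0.01.

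Genes that work with the proteasome lay on both sides of 0. Of 29 such genes, 28 were measured, 12 with a difference above 0 and 16 below, where 47.8% of all genes lay below 0. Their median was -0.044, close to the -0.050 of the proteasome genes. Of the 28, 1 was higher by at least 0.25 and 2 were lower by at least 0.25, where 9.21% and 8.73% of all genes lay. Nfe2l2, a transcription factor of the antioxidant response, was the only one higher by at least 0.25, at 0.25, and gave 18651 in heated blood and 17270 in control blood at its brightest probe. Ubqln4, a shuttle that carries ubiquitinated proteins to the proteasome, had a difference of -0.35, with 449 in heated blood and 528 in control blood at its brightest probe. Uba6, a ubiquitin-activating enzyme, had -0.25, with 3825 in heated blood and 4294 in control blood at its brightest probe. Both had all usable probes below 0, as Nfe2l2 had all above it. None of these sizes was stable, since over the other ways of processing Nfe2l2 ran from 0.15 to 0.25 and was under 0.25 in 8 of 11. Ubqln4 ran from -0.37 to -0.05 and was nearer to 0 than 0.25 in 4 of 10, and Uba6 ran from -0.28 to -0.09 and was nearer to 0 than 0.25 in 6 of 11.

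The genes that bind or regulate the particle itself were nearer to 0. Adrm1, a ubiquitin receptor of the base, gave 25513 in heated blood and 27346 in control blood at its brightest probe and a mean difference of -0.15. Usp14, a deubiquitinase on the base, gave 18169 in heated blood and 19506 in control blood at its brightest probe and a mean of -0.13, with probes from -0.41 to 0.02. Nfe2l1 gave 8735 in heated blood and 8871 in control blood at its brightest probe and a mean of -0.12, with probes at -0.25 and 0.02, so that the brightest probe alone put it above 0. So neither Adrm1 nor Nfe2l1 went beyond 2 spot SDs.

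Pomp, the chaperone of beta ring assembly, gave 56830 in heated blood and 60087 in control blood at its brightest probe and a mean difference of -0.07. Vcp, the segregase that extracts ubiquitinated proteins, gave 19283 in heated blood and 19423 in control blood at its brightest probe and a mean of -0.07. Ubb, a polyubiquitin gene that heat shock induces in mammals, gave 218631 in heated blood and 215053 in control blood at its brightest probe, and a mean difference of 0.05.

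**Figure D4:**
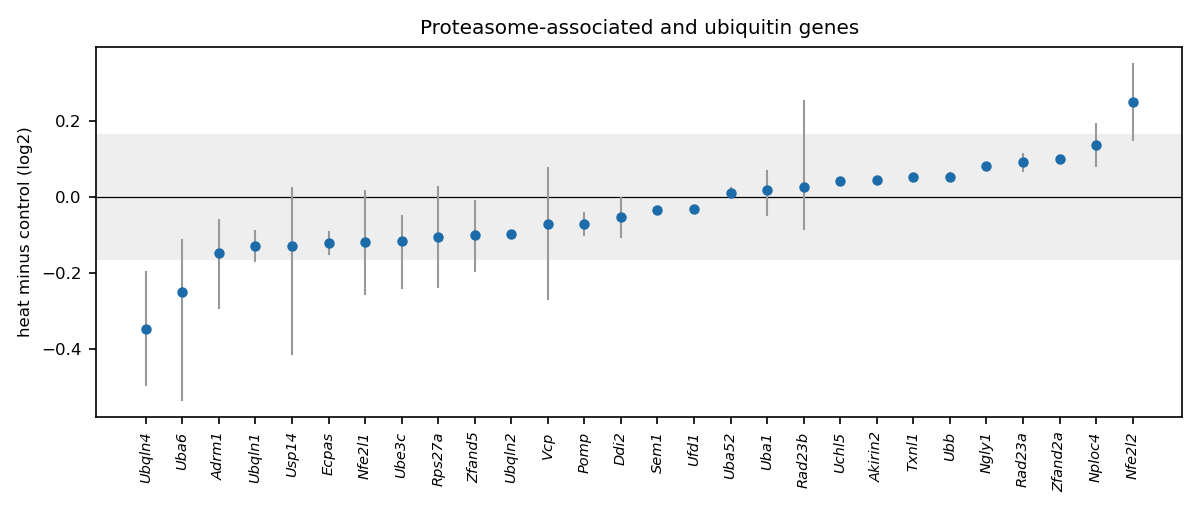
Mean difference, heat minus control on the log2 scale (vertical axis), of the 28 measured genes that work with the proteasome, ordered by value, with vertical lines from the lowest to the highest probe and a grey band of 2 spot SDs (0.164) on either side of 0. Only Ubqln4 and Uba6 lie below the band and only Nfe2l2 above it, and the lines of Usp14, Vcp and Rad23b cross 0.

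Promoters were read because Nfe2l1 and heat shock factors act through short motifs, searched on both strands from 250 bases before to 50 after each start in RefSeq's GRCm38.p6 table, which held 37 of the 45 members. The antioxidant response element core TGACNNNGC occurred in 6 of the 37 (16.2%), namely Psmb5, Psmb6, Psmc6, Psmd12, Psmd9 and Psme4, against 14.0% of 27025 genes. The heat shock element pair GAANNTTC occurred in 2 (5.41%), Psmb5 and Psmf1, against 9.04% of all genes, and the box CCAAT in 13 (35.1%) against 41.1%. A match is a run of letters and no evidence of binding.

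Psmb5 was the only member with both the antioxidant element and the heat shock pair, and Psme4 had the lowest difference of those with the antioxidant element. For Psmb5 the 250 bases before the start are given, and for Psme4 the 100 bases before it and 2 after it, since its match runs across the start. Capitals mark the matches, the heat shock pair first and the antioxidant element second in Psmb5, and the antioxidant element on the opposite strand in Psme4. Coordinates are those of GRCm38.p6.
Psmb5, chr14:54617996-54618245, - strand: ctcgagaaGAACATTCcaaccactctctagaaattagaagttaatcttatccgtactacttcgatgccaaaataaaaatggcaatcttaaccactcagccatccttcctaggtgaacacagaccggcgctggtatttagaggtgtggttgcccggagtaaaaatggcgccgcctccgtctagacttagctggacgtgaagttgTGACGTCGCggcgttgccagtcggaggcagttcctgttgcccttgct
Psme4, chr11:30771675-30771776, + strand: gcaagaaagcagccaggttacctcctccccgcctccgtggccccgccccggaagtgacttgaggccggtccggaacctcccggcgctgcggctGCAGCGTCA
The 6 members with the antioxidant element had differences from -0.22, for Psme4, to 0.08, for Psmc6, and a median of -0.054, against a median of -0.047 over the 30 measured members without it. Below 0 were 4 of the 6 with it and 23 of the 30 without it. The 12 measured members with CCAAT had a median of -0.059, with 11 below 0, and the 24 without it a median of -0.039, with 16 below 0. The 2 members with the heat shock pair both lay below 0, as did 25 of the 34 without it. These counts are descriptions, and none was tested.

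The small shift of the proteasome genes was found under every processing tried, but its place among all genes changed in 1 of them. Over 11 other ways of processing, the median of the proteasome genes ran from -0.038 to -0.055, and 30 to 33 of them lay below 0. Without the filter on dim probes the median of all genes moved by -0.106 to -0.098, so the proteasome median of -0.052 there lay 0.047 above it, with 64.1% of all genes below 0. The all-alpha direction held under 4 of 6 scalings and failed under both normexp background corrections, with 7 of 8 and 6 of 8 below 0, and 7 of 8 were below 0 when the brightest probe stood for each gene.

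**Figure D5:**
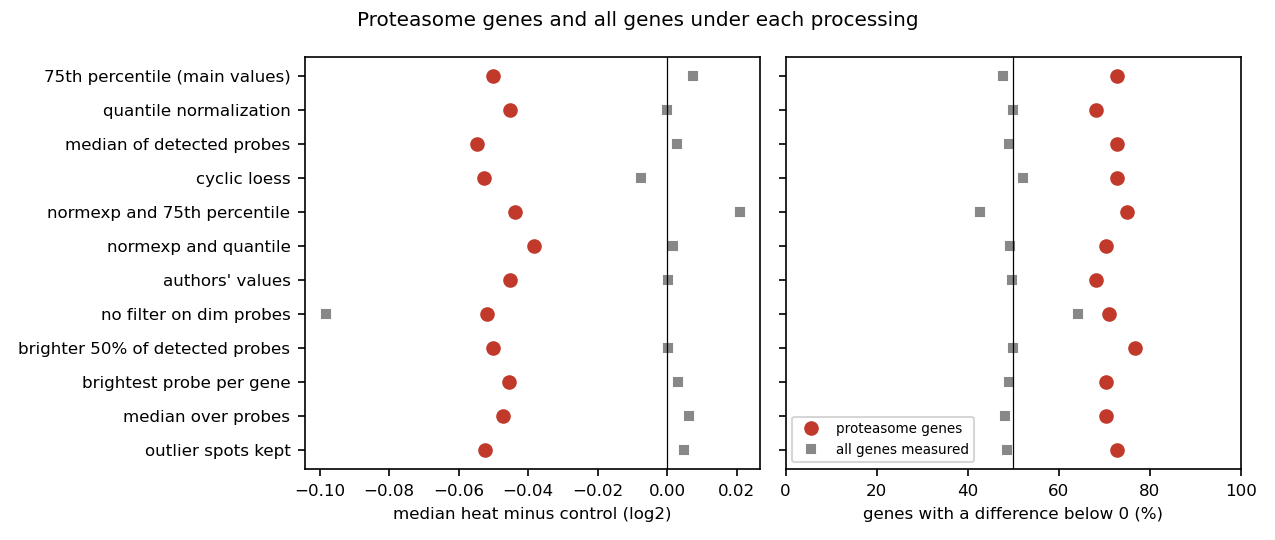
Median difference (left, heat minus control, log2) and share of genes below 0 (right, %) for the proteasome genes (circles) and all genes measured (squares) under each way of processing (rows, reported values on top). The circles stay between -0.038 and -0.055, while the square for all genes lies at -0.098 without the filter on dim probes.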

How the data were processed

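Total RNA of 1 heated and 1 control sample of mouse blood was labelled with Cy3 and hybridised to 1-colour arrays, per the labels' protocols. Per the file headers, the deposited scanner files hold linear intensity values from Agilent Feature Extraction 10.7.1.1 (protocol GE1_107_Sep09) with mm9 probe coordinates. The submitters' processing notes name Feature Extraction 9.1. The authors' deposited value table holds log2 values, which lay within 0.0564 of quantile-normalized log2 processed signals on each array, in the same direction and with a median of 5.27 in each column; how they were centred was not stated.

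Each array had 62976 spots, 59305 outside the controls. Outlier spots (168 heat, 149 control) were left out and spots of a probe were averaged after log2. The 75th percentile of each array was subtracted, and the probes of a gene that the software marked as well above background in both samples (28755 over all genes) were averaged. Transcript records were matched to RefSeq's GRCm38.p6 table for 32994 of 35886 probes (91.9%). Numbers of arrays limit the precision. With 1 array a group, differences were counted at 0.25 and 1 and not tested. The alternatives were quantile, median and cyclic loess scaling, normexp (offset 50) with the 75th percentile or quantile, the authors' values, all probes with dim ones kept, the brighter 50% of detected probes, the brightest or the median probe, and outlier spots kept.

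On simulated data over 18685 genes, with noise set to the spot SD of 0.0822 and so covering repeated spots of 1 hybridisation only, 100% of 100 genes planted at 0.5 were recovered at 0.25, where 15 of 18485 unchanged genes were called; 100% of 100 planted at 1.5 were recovered at 1, with 0 unchanged genes called. The spread between probes of the same gene, with an SD of 0.193, was not simulated. These rates therefore do not say how reliable a difference of 0.25 is here. Members, lists and the rule for named genes were chosen with earlier results of these data known. The rule names, in each class, the 4 members with the largest absolute differences, all members at 0.25 or beyond, 10 preset members, and the 4 largest and the preset genes of the associated list, of which 1 is not reported here. R 4.3.3, limma 3.58.1, Python 3.11.15, numpy 2.4.6 and pandas 2.3.3 were used.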

Additional observations from a re-analysis of the deposited data

How the results depend on the processing

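Under 11 other ways of processing, 922 values were compared, 870 moved by less than the spot SD of 0.0822, 52 moved by more, all of them of single genes, and 0 of the values at 0.25 or beyond changed sign. The count of proteasome genes lower by at least 0.25 was 2 and became 1 with normexp and the 75th percentile. It became 1 with the brighter 50% of detected probes, which leave out Psma8. It was 3 with the brightest probe per gene, where Psme2b (-0.28) joined. Without the filter on dim probes it was also 3, where Psmb11 (-0.31), at background on both arrays, joined. Psma8 came to -0.23 and Psme4 to -0.11 with normexp and the 75th percentile, while Psmc5 stayed between -0.35 and -0.27; the cause was not tested. Of the 44 members, 27 were below 0 and 8 above it under all 6 other scalings, and 9 changed sign under at least 1 (Psma1, Psma2, Psmb1, Psmb6, Psmb7, Psmc1, Psmc4, Psmd6 and Psmg4). The same shares over all genes were not computed, so these counts do not set the members apart. With the brightest probe per gene the beta median was 0.023. Among associated genes, Nfe2l2, Ubqln4 and Uba6 came nearer to 0 than 0.25 in 8 of 11, 4 of 10 and 6 of 11 settings. Genes of like level were chosen as a comparison after seeing the data. No replicate could be left out, with 1 array a group, and signal near background limits the dim probes of Psme4 and Psmd14. No paired analysis was possible because each group has 1 array.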
